A study of Mus musculus musculus x Mus musculus castaneus with 12 samples.

Results

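The 10 genes described here, Dazl, Ddx4, Sycp1, Sycp3, Mael, Asz1, Tdrd1, Tex101, Stk31 and Brdt, belong to the genes of the germ line whose promoters are methylated in somatic cells. They were taken by gene symbol, and all 10 were present among the 24346 genes measured. Their RNA was measured by RNA-seq in 12 samples of F1 hybrid mouse embryonic stem (ES) cells, in which the gene for the histone demethylase KDM6A was intact (wt) or knocked out (KO). The comparisons ask whether KO clones differed from the wt samples of their own cross, and whether the crosses, the sexes and the parental alleles differed.

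Germ cells need these genes to make gametes, while most other cells keep them off. DNA methylation of a CpG-rich promoter is one way in which they are kept off, and loss of DNA methyltransferases is known to raise several of them in other cells. In ES cells the Polycomb-like complex PRC1.6, which reads DNA through its subunits E2F6, MGA and MAX, and the H3K9 methyltransferases are also known to restrain genes of this kind. KDM6A removes methyl groups from lysine 27 of histone H3 and is encoded on the X chromosome. Promoter methylation itself was not measured in these samples.

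The male BC cells came from a cross of C57BL/6J (BL6) with Mus castaneus (cast), with BL6 as the mother, and comprised 2 wt samples and the 3 Kdm6a KO clones ΔE1, ΔE3 and ΔP4. The male CB cells came from the reciprocal cross, with cast as the mother, and comprised 2 wt samples and 3 Kdm6a KO clones, of which ΔP2.1 lost the promoter and ΔE2.5 and ΔE2.7 lost exons. The female BC cells were wt only, with 2 samples. Letters E and P stand for a deletion of Kdm6a exons or of its promoter. Every sample was grown in serum with LIF on inactivated embryonic fibroblasts, which were depleted before RNA was taken. No source used here names more than 1 parental line for a cross and sex, so effects of line, cross and sex cannot be told apart. The CB wt line carried an actin-GFP transgene, and ΔE1 and ΔE3 share an off-target deletion of Sh3kbp1, Map3k15 and Pdha1 and a common origin. The wt replicates are called clones or biological replicates by the study and nothing says that they came from separate embryos. The p-values measure the spread between such samples and, where KO clones were in the fit, between those clones. Expression was compared between wt groups with all 12 samples fitted, KO clones included.

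Depth ranged from 68457338 to 89070402 fragments in BC and from 49975599 to 53407103 in CB. Kdm6a was at 49.8 and 51.3 TPM (fragments per transcript length, scaled to the same total in every library) in male BC wt, at 11.6, 13.5 and 0.0441 TPM in ΔE1, ΔE3 and ΔP4, at 51.0 and 51.7 TPM in CB wt and at 2.07, 7.28 and 0.0364 TPM in ΔE2.5, ΔE2.7 and ΔP2.1. All KO clones were below every wt sample, although the fold change missed the threshold in both crosses (log2 −2.60, SE 1.3, adjusted p = 0.509 in BC and log2 −3.95, SE 1.25, adjusted p = 0.190 in CB, edgeR). The 8 ES cell markers summed to 6656 to 17428 TPM in every sample. The 10 fibroblast markers summed to 34.8 to 228 TPM in the BC samples, to 2430 and 2497 TPM in CB wt and to 662, 1217 and 2654 TPM in ΔE2.5, ΔE2.7 and ΔP2.1. In the CB samples most of each sum was Tagln and Acta2. A bulk sample cannot tell fewer expressing cells from less RNA per cell.

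The start of each gene is shown first, because PRC1.6 and DNA methylation act there. In the GENCODE M21 annotation of GRCm38, Dazl lies at chr17:50279395-50293636 on the minus strand, Ddx4 at chr13:112598333-112652475 on the minus strand, Sycp1 at chr3:102818499-102936100 on the minus strand and Sycp3 at chr10:88459569-88473236 on the plus strand. Mael lies at chr1:166201201-166238747 on the minus strand, Asz1 at chr6:18050964-18109061 on the minus strand, Tdrd1 at chr19:56826209-56870012 on the plus strand and Tex101 at chr7:24668007-24676675 on the minus strand. Stk31 lies at chr6:49395604-49469501 on the plus strand and Brdt at chr5:107331159-107387058 on the plus strand. All 10 are autosomal. The first 200 bases of the transcript used for each gene held a median of 10.5 CpG dinucleotides, against 10 over the 22013 transcripts of at least this length. CpG counts differed among the members, with 33 in Ddx4, 22 in Mael, 21 in Dazl and 18 in Sycp1, but 8 in Sycp3, 4 in Stk31 and 1 in Tdrd1. The letters GCGGGA, the core recognised by E2F factors, were searched on both strands (TCCCGC on the other) and were found in this window of Ddx4, Mael and Sycp1, and in 17.7% of all transcripts. The palindrome CACGTG, the E-box bound by MAX dimers, was found in the window of Ddx4 alone among the members, and in 3.32% of all transcripts. These matches are letters in a window of the transcript, with capitals marking the match, and are shown 5′ to 3′ on the strand of the gene from the GENCODE M21 transcripts.

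Ddx4, match from base 30: tccgtccatgggGCGGGAagtcgcgcgccg
Ddx4, match from base 137: ggcgtccgcccgCACGTGcagccgtttaag
Mael, match from base 12: ggttactaaggGCGGGAgcccggcaagggc
Sycp1, match from base 3: agTCCCGCgagttctcgggcttccaggagg
Sycp1, match from base 161: tcacactgttcgTCCCGCcgaggctgagca

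The members were not silent at the level of RNA. Between 6 and 9 of the 10 exceeded 1 TPM in each sample, and their median level was at a percentile between 53.7 and 65.2 among all genes. Averaged over the 12 samples, Ddx4 was highest (28.0 TPM), followed by Sycp3 (25.8), Mael (15.1), Stk31 (9.34), Dazl (8.52), Sycp1 (5.60) and Tdrd1 (4.33). Tex101 (0.996 TPM), Brdt (0.619) and Asz1 (0.138) were near or below 1 TPM. Asz1 rested on 1 to 17 fragments per sample, never exceeded 1 TPM and entered no test. Brdt exceeded 1 TPM in a single female sample (1.03 TPM), so it was tested only where the female samples were in the fit. TPM is a level per length, and the tests below use fragment counts.

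**Figure D1:**
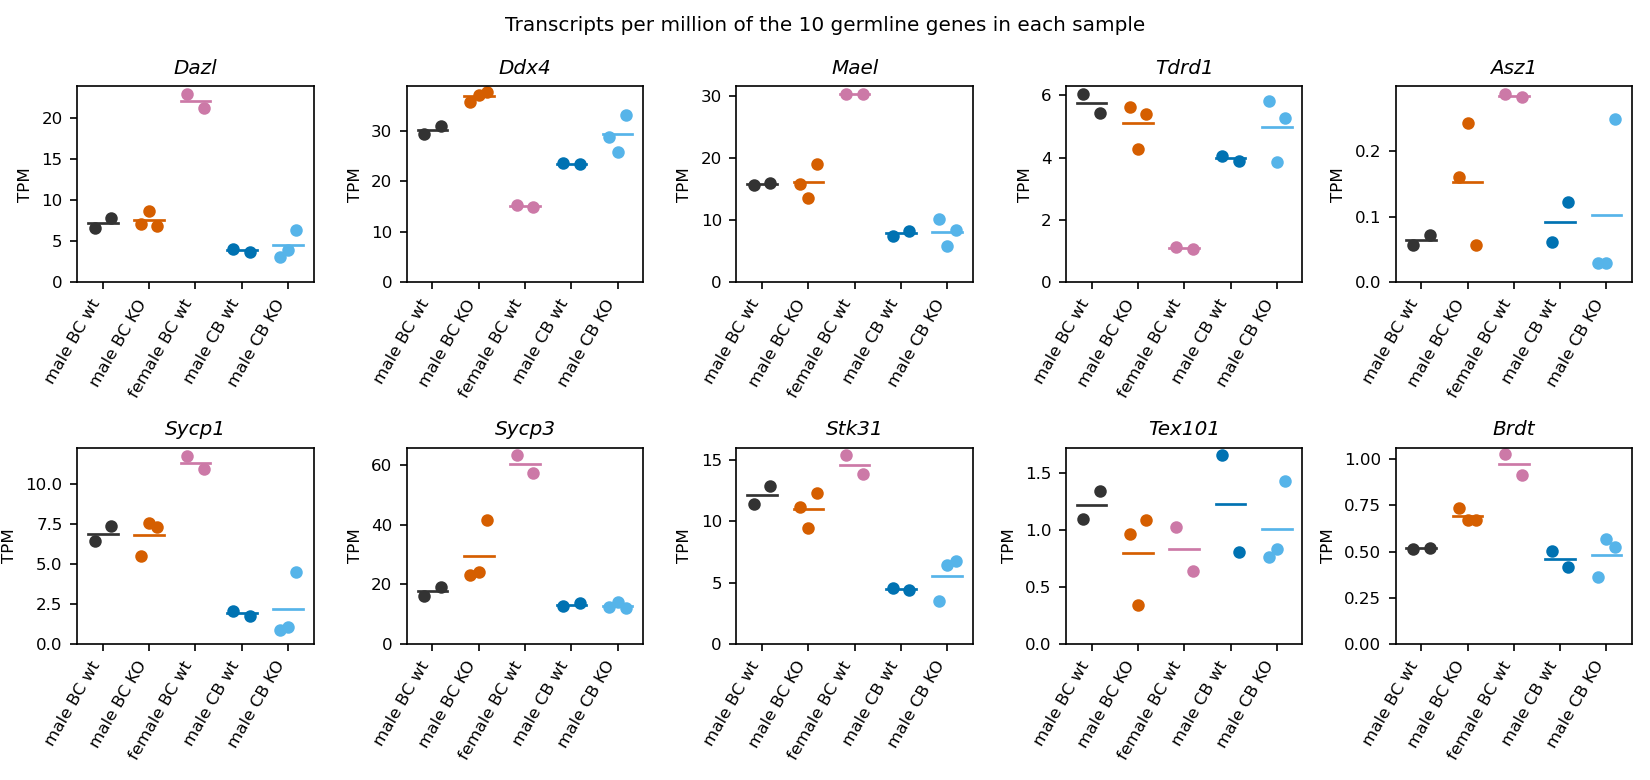
TPM of each member in each sample, with groups on the horizontal axis, a point per sample and a line at the group mean; vertical axes are linear, start at 0 and differ between panels. Dazl, Mael and Sycp3 were highest in the 2 female samples, whereas Ddx4 and Tdrd1 were lowest there.

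Dazl and Ddx4 encode RNA-binding proteins that define germ cells, an activator of translation and an RNA helicase. Dazl was at 6.64 and 7.81 TPM in male BC wt, 7.12, 8.70 and 6.78 in the BC clones, 22.8 and 21.1 in female BC wt, 4.05 and 3.73 in CB wt and 3.12, 3.97 and 6.34 in the CB clones. In descending order the female samples came first, then the male BC samples and then the CB samples, with wt and KO overlapping in both crosses. Ddx4 was at 29.5 and 30.9 TPM in male BC wt, 35.8, 37.2 and 37.8 in the BC clones, 15.4 and 14.8 in female BC wt, 23.6 and 23.5 in CB wt and 28.8, 25.9 and 33.3 in the CB clones. Its clones were above both wt samples in each cross, and its female samples were the lowest of the 12.

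Mael, Tdrd1 and Asz1 encode proteins of the piRNA pathway, which silences transposons in germ cells. Mael was at 15.6 and 16.0 TPM in male BC wt, 15.8, 13.6 and 18.9 in the BC clones, 30.3 and 30.3 in female BC wt, 7.39 and 8.31 in CB wt and 10.3, 5.83 and 8.40 in the CB clones. The order of groups was that of Dazl, again with wt and KO overlapping. Tdrd1, a Tudor-domain scaffold, was at 6.05 and 5.43 TPM in male BC wt, 5.63, 4.29 and 5.39 in the BC clones, 1.12 and 1.07 in female BC wt, 4.07 and 3.90 in CB wt and 5.83, 3.87 and 5.29 in the CB clones. The female samples were the lowest, as for Ddx4. Asz1 was between 0.0289 and 0.287 TPM.

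Sycp1 and Sycp3 encode parts of the synaptonemal complex, which holds homologous chromosomes together in meiosis. Sycp1 was at 6.43 and 7.38 TPM in male BC wt, 5.54, 7.56 and 7.33 in the BC clones, 11.8 and 10.9 in female BC wt, 2.04 and 1.76 in CB wt and 0.890, 1.07 and 4.52 in ΔE2.5, ΔE2.7 and ΔP2.1. The CB clones lay on both sides of their wt, with the promoter clone above and both exonic clones below. Sycp3 was at 16.2 and 19.3 TPM in male BC wt, 23.1, 24.3 and 41.6 in ΔE1, ΔE3 and ΔP4, 63.4 and 57.3 in female BC wt, 12.6 and 13.6 in CB wt and 12.5, 13.9 and 11.9 in the CB clones. Its exons overlap those of Chpt1 on the other strand by up to 420 bases and the library kit does not mark strand, so reads of this stretch cannot be told apart. Chpt1, a gene of phospholipid synthesis, was at 3.19 and 3.87 TPM in male BC wt, 4.54, 3.99 and 5.52 in the BC clones, 6.99 and 6.01 in female BC wt, 3.88 and 3.91 in CB wt and 3.14, 3.31 and 2.71 in the CB clones.

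Stk31 encodes a protein with Tudor and kinase domains that binds the piRNA protein PIWIL2. It was at 11.4 and 12.9 TPM in male BC wt, 11.2, 9.43 and 12.3 in the BC clones, 15.4 and 13.8 in female BC wt, 4.56 and 4.39 in CB wt and 3.47, 6.41 and 6.77 in the CB clones. The CB samples were all below the BC samples. Tex101, a surface protein of sperm cells, was between 0.337 and 1.66 TPM, on 11 to 45 fragments per sample. Brdt, a bromodomain protein of sperm precursors, was between 0.359 and 1.03 TPM.

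Some members varied together across the 12 samples. On log2(TPM + 1), Pearson's r was 0.93 between Sycp1 and Stk31, 0.91 between Dazl and Brdt, 0.91 between Sycp3 and Mael and 0.90 between Ddx4 and Tdrd1, but −0.77 between Dazl and Tdrd1. These values describe 12 samples that share crosses and sexes, and no test was made of them. The genes whose level most resembled the mean standardised level of the members, of 13502 compared, were Rpgrip1 (r 0.97), Cd37 (r 0.96), Tm7sf3 (r 0.96), Ncapd2 (r 0.96) and Nlrp14 (r 0.96). Rpgrip1 averaged 1.72 TPM in male BC wt, 1.82 in female BC wt and 0.793 in CB wt.

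Knockout of Kdm6a in BC was followed by no called change in a member. A gene was called where its adjusted p was under 0.05 and its change at least 1.5-fold. None of the 8 members tested was called, and 1 had an unadjusted p under 0.05, where 0.0290% of the 13805 genes tested were called (4 genes, and 1525 at an unadjusted p under 0.05, edgeR). DESeq2 called no member either, with 1.88% of all genes. Sycp3 was above wt in all 3 clones (log2 0.69, SE 0.27, adjusted p = 0.425), most in the promoter clone ΔP4, and its log2 difference was 0.40 without ΔP4. Chpt1 differed in the same direction (log2 0.36, SE 0.20, adjusted p = 0.561), and its part in the value for Sycp3 was not tested. Ddx4 was 1.22 times wt on mean TPM (log2 0.25, SE 0.12, adjusted p = 0.487). Of the members tested, Ddx4 and Sycp3 were above wt in every clone, a position that 20.9% of genes above 1 TPM held. Brdt, below 1 TPM and not tested here, was above wt in every clone too. Tex101 was below wt in every clone (log2 −0.66, SE 0.50, adjusted p = 0.668), as were 10.9% of genes, with ΔE3 far below the others at 0.337 TPM. For Dazl, Mael, Sycp1, Stk31 and Tdrd1 the log2 differences were 0.02, −0.02, −0.06, −0.19 and −0.21, with SE from 0.16 to 0.21. The median over the 8 members was −0.04, against 0.01 over all genes tested.

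Knockout of Kdm6a in CB gave no call for any gene with edgeR (0% of 13801, with 2832 genes at an unadjusted p under 0.05), and hence for none of the 8 members tested, of which 1 had an unadjusted p under 0.05. DESeq2 called 3.63% of genes and no member. Without ΔP2.1, edgeR called 927 genes and no member. Ddx4 was above wt in all 3 clones, 1.25 times wt on mean TPM (log2 0.39, SE 0.12, adjusted p = 0.186), and it was the only member to hold this position, which 14.7% of genes held. No member was below wt in all 3 clones, as 32.3% of genes were. Its DESeq2 adjusted p was 0.0781. Tdrd1 (log2 0.40, SE 0.20, adjusted p = 0.319) and Stk31 (log2 0.39, SE 0.31, adjusted p = 0.505) had values of like size with clones on both sides of wt. Sycp1 differed by 0.25 (SE 0.74) with all clones, but by −0.87 (adjusted p = 0.0650) without ΔP2.1, and Dazl by 0.28 with all clones and −0.05 without ΔP2.1. Mael is on chromosome 1, whose genes had a median log2 ratio to wt of 0.43 in ΔE2.5, 0.36 in ΔE2.7 and −0.14 in ΔP2.1. Its log2 difference was 0.13 (SE 0.27), and −0.15 when only chromosome 1 genes were fitted. Sycp3 and Tex101 differed by 0.05 and −0.21. The median over the 8 members was 0.26, against 0.01 over all genes tested.

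**Figure D2:**
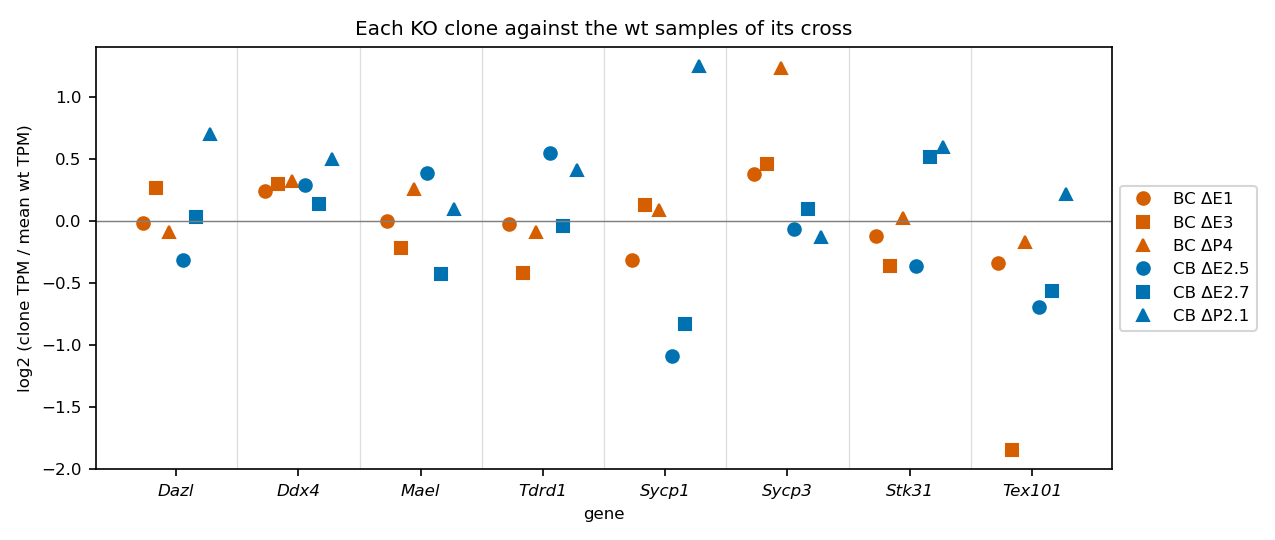
Log2 ratio of the TPM of each KO clone to the mean TPM of the 2 wt samples of its cross, for the 8 members tested in both crosses; colours mark the cross and symbols the clone. Ddx4 lies above 0 in all 6 clones, while ΔP2.1 and the exonic CB clones lie on opposite sides of 0 for Sycp1.

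The effect of the KO was then compared between the crosses. No member of 9 tested was called for this difference by edgeR or DESeq2, where edgeR called 0.811% of 14668 genes (119 genes). That number was 3 without any 1 of the 4 male wt libraries, 32 without ΔE2.5, 191 to 792 without another clone and 9 with the compared groups alone, with 0 members called each time. Tdrd1 alone had an unadjusted p under 0.05. The nearest were Tdrd1, with a log2 difference of 0.61 (SE 0.26, adjusted p = 0.236), and Sycp3, with −0.65 (SE 0.31, adjusted p = 0.273). Ddx4 differed by 0.14 (SE 0.15, adjusted p = 0.645).

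Among other germ line genes, none was called by edgeR in the clones. In BC, 0 of 14 other meiotic chromosome genes, 0 of 13 other piRNA and transposon defence genes and 0 of 8 other germ cell genes were called, with median log2 differences of 0.21, 0.05 and 0.06. At an unadjusted p under 0.05 there were 3, 1 and 0 of them. Among these BC values were Msh4, a mismatch repair protein of meiosis (log2 0.80, SE 0.38), Fkbp6, a chaperone partner in piRNA production (log2 −1.52, SE 0.32) and Dpep3, a dipeptidase of the testis (log2 0.56, SE 0.32). Within the male BC samples, Msh4 and Mei1, of the same list, exceeded 1 TPM in clones alone. They entered the test only through the group in which they were higher, and the median of 0.21 includes them. Stag3, a meiotic cohesin, differed by −0.24, Gtsf1, a piRNA cofactor, by 0.29 and Zcwpw1, a histone reader of meiosis, by −0.28. DESeq2 called 1 of these, Fkbp6. In CB the same lists had 0 of 12, 0 of 12 and 0 of 7 called, with medians of 0.48, 0.51 and 0.61 and with 11, 10 and 7 genes above 0. At an unadjusted p under 0.05 there were 2, 5 and 3, and DESeq2 called Syce1, Tex19.1, Rpl10l and Sohlh2 higher and Tex15 lower. The largest were Syce1, of the synaptonemal complex (log2 1.32, SE 0.39, adjusted p = 0.177), Piwil4, an Argonaute of the piRNA pathway (log2 1.41, SE 0.37, adjusted p = 0.168) and Sohlh2, a transcription factor of early gametes (log2 1.51, SE 0.60, adjusted p = 0.240). Within the CB samples, Piwil4, Dpep3, Smc1b and Sycp2 exceeded 1 TPM in clones alone. They entered the test only through the clones, and the CB medians and counts above 0 include them. Tex15, needed for transposon silencing, had a log2 difference of −0.63 (SE 0.13, adjusted p = 0.137).

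The lists of regulators also gave no call by edgeR in either cross. In BC, 0 of 8 DNA methylation enzymes, 0 of 13 PRC1.6 subunits, 0 of 5 H3K9 methylation repressors and 0 of 5 germ cell fate regulators were called by edgeR, with 3, 2, 0 and 2 at an unadjusted p under 0.05 and medians of −0.18, −0.05, −0.21 and −0.08. Dnmt3a, a de novo DNA methyltransferase, was at 159 and 142 TPM in wt and 83.5, 69.8 and 73.2 in the clones (log2 −1.03, SE 0.12, adjusted p = 0.117). Nanos3, a germ cell survival factor, was at 7.16 and 9.35 TPM in wt and 2.84, 2.36 and 2.29 in the clones (log2 −1.77, SE 0.29, adjusted p = 0.263). Tet2, which oxidises methylcytosine, differed by 0.47, Tfdp1, a partner of E2F factors, by −0.55, Ehmt2, an H3K9 methyltransferase, by −0.31 and Prdm14, which restrains DNA methylation, by 0.65. DESeq2 called Dnmt3a, Dnmt3b, Nanos3 and Prdm14 in BC. In CB the medians of these 4 lists were 0.06, 0.11, 0.07 and 0.16, with 0, 2, 1 and 0 genes at an unadjusted p under 0.05. Tet3 differed by −0.32, Ring1, the E3 ligase of PRC1, by 0.40, Yaf2 by −0.28 and Trim28, a corepressor, by 0.33. The most abundant gene of each of these lists was Dnmt3l (819 TPM on average), Wdr5 (294), Trim28 (2550) and Tfap2c (57.3). For the other germ line lists these were Syce2 (141), Tex19.1 (124) and Rpl10l (113). Of the ES cell markers, 3 of 8 in BC and 2 of 8 in CB had an unadjusted p under 0.05, among them Esrrb in BC (log2 0.80) and Sox2 in CB (log2 0.69), and Dppa5a was most abundant (3066 TPM). Of the fibroblast markers tested, 2 of 7 in BC and 1 of 9 in CB had one, among them Col1a2 (log2 −1.06 in BC and −2.06 in CB), and Tagln was most abundant (578 TPM). None of these markers was called by edgeR, while DESeq2 called Esrrb, Nanog, Zfp42 and Thy1 in BC and Sox2 in CB.

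The wt samples of the crosses differed in several members, all in 1 direction. In CB wt, Sycp1 (log2 −1.94, SE 0.60, adjusted p = 0.0256), Stk31 (log2 −1.52, SE 0.27, adjusted p = 0.00172), Mael (log2 −1.09, SE 0.24, adjusted p = 0.00486), Dazl (log2 −0.98, SE 0.28, adjusted p = 0.0202) and Tdrd1 (log2 −0.61, SE 0.20, adjusted p = 0.0365) were lower than in male BC wt. Thus 5 of 9 members tested were called, all lower, where 27.9% of 14671 genes were called and 12.1% were called lower. Ddx4 was lower too, but under 1.5-fold (log2 −0.44, SE 0.12, adjusted p = 0.0143). Sycp3 (log2 −0.52, adjusted p = 0.112), Brdt (log2 −0.25) and Tex101 (log2 −0.07) did not pass. The median over the 9 was −0.61, against −0.03 over all genes. On TPM, 8 of the 9 members tested had both CB wt samples below both BC wt samples, as had 38.2% of the genes tested, and none had them above, as had 46.7%. The calls were sensitive to single libraries. Without male BC wt 1, male BC wt 2, male CB wt 1 or male CB wt 2 there were 3, 2, 1 and 2 members called, and Stk31 was called each time. The number of all genes called fell as well, from 4086 to 2781, 2613, 2595 and 2630.

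Other germ line genes were lower in CB wt as well. Of the other meiotic chromosome genes, 14 of 16 were called lower, with a median log2 difference of −1.74, among them Hormad1, of the unpaired chromosome axis (log2 −2.69, SE 0.32, adjusted p = 0.000219), Stra8, which starts meiosis (log2 −2.50, SE 0.55, adjusted p = 0.00503) and Dmc1, the meiotic recombinase (log2 −1.21, SE 0.28, adjusted p = 0.00658). Of the other piRNA genes, 6 of 14 were lower and 1 higher (median −0.68), among them Piwil4 (log2 −2.92), Piwil1 (log2 −2.21) and, higher, Tdrd7 (log2 1.96). Of the other germ cell genes, 6 of 8 were lower (median −1.48), among them Sohlh2 (log2 −2.09) and Tex14 (log2 −1.88). Msh4, Mei1, Meiob, Tex12, Piwil1 and Slc25a31, all called lower, exceeded 1 TPM in BC samples alone. They entered the test only through the cross in which they were higher, and the counts and medians above include them. Of these, Msh4, Mei1, Meiob and Tex12 were below 1 TPM in every male wt sample. The counts for regulators were 1 of 5 fate regulators (Nanos3, lower), 2 of 8 DNA methylation enzymes (Tet1 and Tet2, lower), 5 of 13 PRC1.6 subunits (E2f6 and Rybp higher, Cbx3, Rnf2 and Tfdp1 lower) and 0 of 5 H3K9 repressors, 3 of which had an unadjusted p under 0.05. Over all genes, 27.9% were called in this comparison, 15.7% higher and 12.1% lower. These lists were chosen with earlier results of these samples known.

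Some cell type markers differed between the wt samples of the crosses. Of 9 fibroblast markers tested, 4 were called higher in CB wt (median log2 2.03), with Acta2 at 692 and 683 TPM against 42.2 and 41.0 and Tagln at 1714 and 1662 TPM against 90.0 and 92.9. Lum, a matrix proteoglycan, stayed at 0.195 TPM or less in CB wt, and Dcn was at 4.77 and 4.29 TPM. Dcn, which was called, and Postn, which was not, exceeded 1 TPM in CB samples alone. They entered the test only through the cross in which they were higher, and the count and the median include them. Of the 9 tested, 2 had a log2 difference below 0. Thy1 was at 14.4 and 13.0 TPM in CB wt against 20.5 and 19.6 in male BC wt. Col1a2 was nearly equal, at 2.83 and 2.76 TPM against 2.82 and 2.53. Of 8 ES cell markers, 2 were called lower (Sox2 and Esrrb), with a median log2 difference of −0.48. Over all genes, 27.9% were called, 15.7% higher and 12.1% lower. The part of fibroblasts in the difference between the crosses was not tested. In ΔE2.5, whose fibroblast sum of 662 TPM was the lowest of the CB samples and held 587 TPM of Tagln, members lay on both sides of CB wt. There 7 members were below both CB wt samples, among them Dazl (3.12 TPM), Sycp1 (0.890 TPM) and Stk31 (3.47 TPM). The others below were Sycp3 (12.5 TPM against 12.6 and 13.6), Tex101, Brdt and Asz1. The 3 above both were Ddx4 (28.8 TPM), Mael (10.3 TPM) and Tdrd1 (5.83 TPM). In ΔP2.1, whose sum of 2654 TPM was the highest, Dazl, Sycp1, Stk31, Ddx4, Mael, Tdrd1, Brdt and Asz1 were above both CB wt samples. Sycp3 was below both there, and Tex101 lay between them. Each is a single clone, and these positions were not compared with those of all genes.

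**Figure D3:**
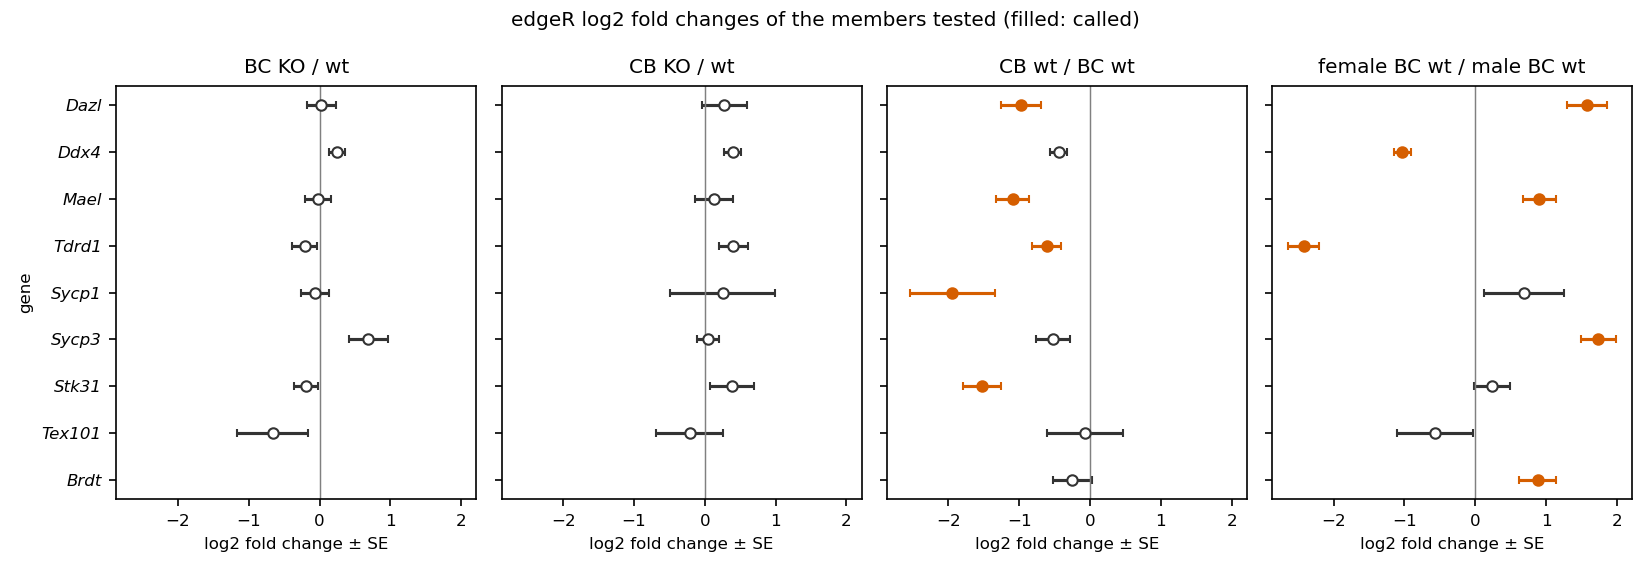
Log2 fold changes with standard errors from edgeR for the members tested in 4 comparisons; filled points were called. No point is filled for the KO clones, 5 are filled on the lower side for CB wt, and the female comparison has filled points on both sides.

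Female BC wt cells differed from male BC wt cells in both directions. Sycp3 (log2 1.74, SE 0.25, adjusted p = 0.000241), Dazl (log2 1.57, SE 0.28, adjusted p = 0.000997), Mael (log2 0.91, SE 0.23, adjusted p = 0.00748) and Brdt (log2 0.88, SE 0.27, adjusted p = 0.0171) were higher in female cells. Tdrd1 (log2 −2.42, SE 0.22, adjusted p = 2.18e-05) and Ddx4 (log2 −1.03, SE 0.12, adjusted p = 7.84e-05) were lower. Thus 6 of 9 members were called, 4 higher and 2 lower, where 38.7% of 14671 genes were called, 21.5% higher and 17.3% lower. Brdt entered the test through a female sample alone, the group in which it was higher, and without it 5 of 8 members were called, 3 higher and 2 lower. Sycp1 (log2 0.69, SE 0.56, adjusted p = 0.330), Stk31 (log2 0.24) and Tex101 (log2 −0.57) did not pass. On TPM, 6 of the 9 members tested had both female samples above both male BC wt samples and 3 had them below, as had 45.5% and 41.0% of the genes tested. Chpt1, the neighbour of Sycp3, was also higher (log2 0.85, SE 0.19, adjusted p = 0.00361), and its part was not tested. This comparison shares the male BC wt samples with the comparison of the crosses and with that of the BC clones.

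Other meiotic chromosome genes were called higher in female cells by edgeR for 8 of 16 and lower for 0, with a median log2 difference of 1.11, while DESeq2 called 7 higher and 1, Syce2, lower (log2 −0.67, adjusted p = 0.0383). They included the cohesins Smc1b (log2 2.72, SE 0.40, adjusted p = 0.000299) and Stag3 (log2 1.61, SE 0.20, adjusted p = 0.000111) and Meiob, which binds single-stranded DNA (log2 2.72, SE 0.44, adjusted p = 0.000578). Of the other piRNA genes, 6 of 14 were higher and 3 lower (median 0.31), with Fkbp6 (log2 2.04) and Piwil1 (log2 2.03) higher and Tdrd5 (log2 −1.78) and Piwil4 (log2 −2.12) lower. Meiob, Tex12 and Tdrd9, all called higher, exceeded 1 TPM in female samples alone. They entered the test only through the group in which they were higher, and the counts above include them. Of the other germ cell genes, 3 of 8 were higher and 2 lower (median 0.33). Over all genes, 38.7% were called, 21.5% higher and 17.3% lower. Dnmt3a (log2 −1.16, SE 0.24) and Dnmt3b (log2 −1.78, SE 0.34) were lower among 4 of 8 DNA methylation enzymes called, and Tet2 and Tet3 higher. Called were also 4 of 13 PRC1.6 subunits (Wdr5 higher, Ring1, Rnf2 and Tfdp1 lower), 1 of 5 H3K9 repressors (Setdb1, lower) and 3 of 5 fate regulators (Prdm14 higher, Prdm1 and Nanos3 lower). Of the ES cell markers, 4 of 8 were higher in female cells, Nanog among them (log2 2.04), and of the fibroblast markers 4 of 9 were lower and Thy1 higher. Dcn and Postn, among the lower ones, were below 1 TPM in every BC sample. The part of these cell type markers in the result was not tested.

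Alleles were compared with the fragments that carry a SNP, which were 8.10% to 10.1% of fragments for BL6 and 7.84% to 9.81% for cast. Fragments of autosomal genes were BL6 for 53.2% to 55.8% in the male samples and for 45.6% and 45.5% in the female ones. X-linked fragments were BL6 for 98.8% to 99.3% in male BC samples, 51.1% and 50.6% in female samples and 9.94% to 11.5% in male CB samples, in which the X chromosome comes from cast. The source of these BL6 fragments in CB was not tested. In female BC wt, Ddx4 fragments were BL6 for 37.3% and 37.7%, and its ratio of cast to BL6 fragments differed from that in male BC wt (log2 0.93, SE 0.13, adjusted p = 1.88e-06), in a comparison chosen after the data were seen. It was 1 of 7 members called there, where 37.0% of genes were called. Only 3 members had at least 20 SNP fragments in all 4 male wt samples. Stk31 fragments were BL6 for 29.9% and 24.1% in male BC wt (127 and 145 fragments) and for 17.1% and 30% in CB wt (35 and 30 fragments). Its cast allele was higher whichever parent gave it (log2 1.68, SE 0.22, adjusted p = 3.40e-13), and it was the only member called of 3 tested, where 29.5% of 10466 genes were called. Ddx4 was BL6 for 60.2% and 60.7% in male BC wt and for 56.9% and 59.1% in CB wt, with the cast allele lower by less than 1.5-fold (log2 −0.45, SE 0.07, adjusted p = 4.65e-10). Tdrd1 did not pass (log2 −0.14, SE 0.12, adjusted p = 0.284). The test on few fragments depended on the minimum, with 5 of 8 members called at a minimum of 5 fragments, where 30.8% of genes were called, and 0 of 2 at a minimum of 50, where 27.5% were. Without male CB wt 2, Sycp1 also entered the test and 2 of 4 members were called.

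Between the maternal and the paternal allele no member of 3 was called, where 10.9% of genes were. For Tdrd1 the maternal allele was lower by less than 1.5-fold (log2 −0.32, SE 0.12, adjusted p = 0.0208), and for Ddx4 and Stk31 the log2 differences were 0.01 and 0.08. No difference of the KO effect between alleles was called by edgeR for the 7 members tested in BC (0.00925% of 10807 genes called, 554 at an unadjusted p under 0.05) or the 3 tested in CB (0% of 10267 genes, 335 at an unadjusted p under 0.05), and no member had an unadjusted p under 0.05. Without ΔP4, 502 genes and no member were called in BC. Mael had few SNP fragments but nearly all were BL6 in both crosses, with 65 of 67 in male BC wt (97.0%, 95% Wilson interval 89.8% to 99.2%), 96 of 102 in female BC wt, 13 of 14 in CB wt and 34 of 34 in the CB clones. The intervals cover counting error only.

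**Figure D4:**
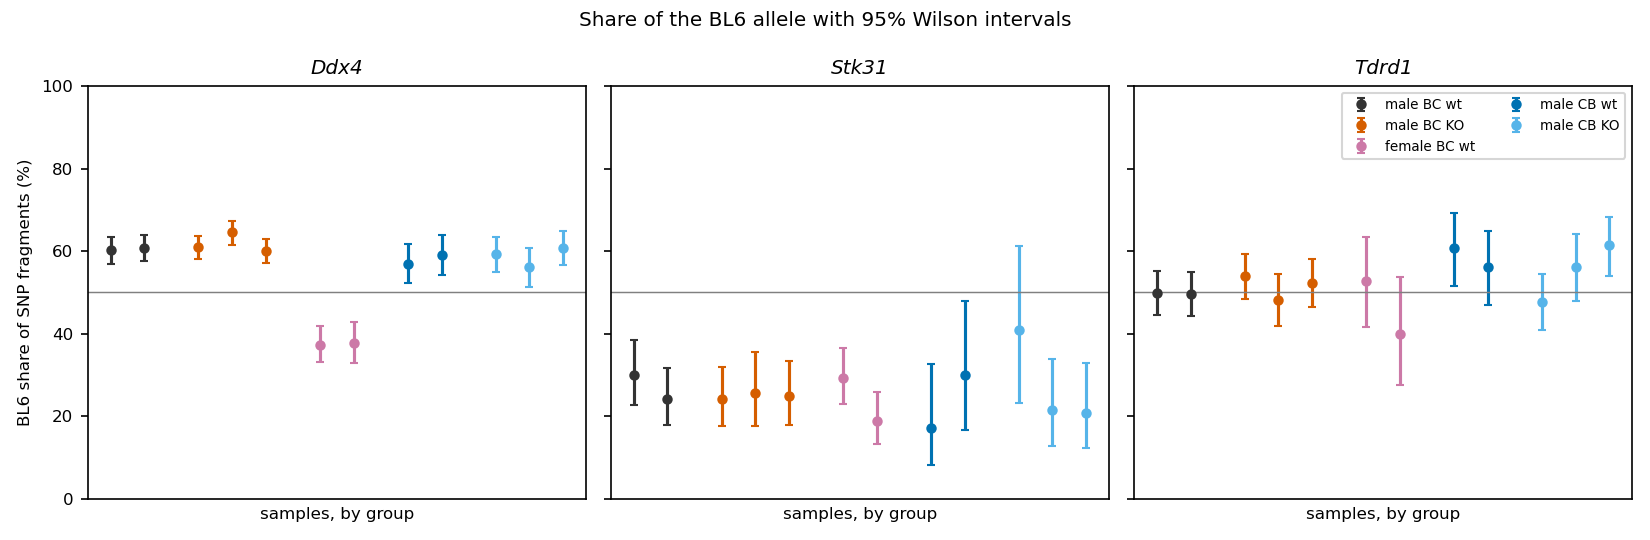
BL6 share of the SNP fragments of Ddx4, Stk31 and Tdrd1 in each sample, ordered by group, with 95% Wilson intervals and a line at 50%. Ddx4 was at 56.1% to 64.5% in the 10 male samples and at 37.3% and 37.7% in the female ones, and Stk31 was below 50% in every sample.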

How the data were processed

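RNA-seq libraries of 12 samples were made with an unstranded kit. The authors aligned reads to mm10 and to a cast version of it made from SNPs, used reads with a single location, split them by SNP and deposited expected counts per gene, which need not be whole. The submitters' processing notes name Bowtie2 2.2.5. Here the counts over both genomes were rounded and tested with edgeR 4.0.16 (quasi-likelihood, TMM) in R 4.3.3, leaving out genes that reached 1 TPM in none of the samples fitted. DESeq2 1.42.0 was an alternative. TPM used transcript lengths of GENCODE M21 for 23310 of 24346 genes matched by symbol, and the median length for the other 1036. KO clones were fitted with the wt of their cross, and comparisons of wt groups used all 12 samples in 5 groups. The 3 genes of the off-target deletion were left out of BC fits. Allele tests needed at least 20 SNP fragments in every sample. Adjusted p-values are Benjamini-Hochberg over all genes tested. Depth was 49975599 to 89070402 fragments, and intervals cover counting error only.

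The members and the gene lists were chosen with earlier results of these data known. Named list genes were the most abundant of each list and those with the largest change in each direction in the clones among genes whose KO and wt samples did not overlap, and for the wt comparisons examples were chosen after their values were seen. Scripts were tested on simulated data. Alternatives were other scaling, filters, the BL6 counts, left-out samples, a replicate block and, chosen after seeing the data, the comparison of allele ratios between sexes.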

Additional observations from a re-analysis of the deposited data

Results flagged for a closer look

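Nanos3, a germ cell survival factor that is not among the 10 genes, had a KO effect that differed between the crosses (log2 1.91, SE 0.33, adjusted p = 0.0378, edgeR test of the difference). It was no longer called without male BC wt 1, male BC wt 2, male CB wt 1, male CB wt 2 or ΔE2.5 (adjusted p = 0.139, 0.236, 0.251, 0.250 and 0.0715) or with the compared groups alone (adjusted p = 0.0941), with log2 values from 1.70 to 2.11. It was lower in all 3 BC clones (2.84, 2.36 and 2.29 TPM against 7.16 and 9.35 in wt), and its CB clones (4.88, 4.68 and 4.15 TPM) overlapped their wt (4.22 and 4.43 TPM).

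The ratio of cast to BL6 fragments of Ddx4 differed between female and male BC wt (log2 0.93, SE 0.13, adjusted p = 1.88e-06, edgeR), a comparison chosen after seeing the data. BL6 fragments were 171 of 458 and 140 of 371 in the female samples and 524 of 870 and 571 of 940 in the male ones. Ddx4 was the 1 member called of 7 tested, where 37.0% of 10730 genes were called. Autosomal fragments as a whole were BL6 for 45.6% and 45.5% in the female samples and 55.3% and 55.4% in the male ones, and after scaling for this the Ddx4 shares were 41.6%, 42.1%, 55.1% and 55.4%. The part of the line in this difference was not tested.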

How the results depend on the processing

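Other scaling, filters, BL6 counts, DESeq2 and left-out samples gave 0 members called for both KO comparisons and for their difference between crosses. For CB wt against BC wt, 5 members were called under every such setting except leaving out a library, which gave 1 to 3, with the lowest without male CB wt 1. For female against male BC wt, 6 were called, 5 with a minimum of 5 TPM, 7 with the 4 samples alone and 4 to 5 without a library. With the replicate block, 5 and 7 members were called, Sycp1 (log2 0.66) being the addition, while the deviations of same-numbered samples had correlations of 0.06 and 0.19 over 14671 genes, so the numbers were not taken to pair the samples. For the cast against the BL6 allele, 5 members were called with a minimum of 5 SNP fragments, 0 with 50 and 1 to 2 without a library. For the allele ratio between sexes, 2 were called with library sizes alone and 1 to 2 without a library.

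Some small log2 differences changed sign, and the cause was not tested. Without a library, the BC KO values ranged from −0.11 to 0.15 for Dazl, −0.12 to 0.074 for Mael and −0.17 to 0.055 for Sycp1, and with ΔE1 and ΔE3 averaged Dazl was −0.036 and Mael 0.024. The CB KO values ranged from −0.052 to 0.48 for Dazl, −0.067 to 0.31 for Mael, −0.87 to 0.62 for Sycp1, −0.035 to 0.11 for Sycp3 and −0.64 to 0.39 for Tex101, and Mael was −0.15 with chromosome 1 genes alone. For CB wt against BC wt, Tex101 ranged from −0.67 to 0.36 and was 0.017 with BL6 counts. For the difference between crosses the ranges were −0.077 to 0.46 for Dazl, −0.043 to 0.33 for Mael and −0.81 to 0.69 for Sycp1. For the maternal against the paternal allele they were −0.024 to 0.044 for Ddx4 and −0.18 to 0.35 for Stk31. With library sizes alone the cast against BL6 value of Tdrd1 was 0.033.

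Levels depend on the length used: with the union of exons, mean TPM in male BC wt was 44.9 for Ddx4, against 30.2. Few SNP fragments limit the allele tests to 3 members in both crosses.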
